A study of Mus musculus with 34 samples.

Results

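Nnt and 9 antioxidant enzymes were followed across 8 genotype groups of mouse skeletal muscle, in 34 RNA-seq libraries. The 10 genes were chosen by name for their roles in the removal of superoxide and peroxide and in the redox balance of mitochondria, out of 46071 genes in the deposited count table. Superoxide that leaks from the respiratory chain is turned into hydrogen peroxide by superoxide dismutases, Sod2 in the mitochondrial matrix and Sod1 mainly in the cytosol. The peroxide is removed by catalase (Cat), by glutathione peroxidases (Gpx1, Gpx3 and Gpx4) and by peroxiredoxins such as mitochondrial Prdx3, which mitochondrial thioredoxin (Txn2) and thioredoxin reductase (Txnrd2) recharge. These cycles draw on NADPH, part of which Nnt makes in the inner mitochondrial membrane with the proton gradient, and contracting muscle, rich in mitochondria, makes reactive oxygen species throughout.

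The insulin receptor was deleted from muscle in MIRKO (4 libraries), the IGF-1 receptor in MIGF1RKO (5 libraries) and the pair of them in MIGIRKO (6 libraries). QKO (7 libraries) lacked the same pair of receptors and also FoxO1, FoxO3 and FoxO4, the forkhead factors that insulin signalling keeps out of the nucleus. Each genotype was kept as its own colony and set against floxed littermates without the deletion, named IRlox (3 libraries), IGFRlox (4), IRIGFRlox (3) and Qlox (2). By the series text the mice were male, and their age is not given in the sources used here. Cre was driven by Acta1, the skeletal muscle actin gene, in MIRKO, MIGIRKO and QKO, and the driver in MIGF1RKO is not given in the sources used here. Powdered quadriceps and gastrocnemius were mixed before RNA extraction, so nerve, vessel, fat and immune cells were sequenced with the fibers. All 8 groups shared a mixed background of C57BL/6 substrains and 129, in which Nnt alleles differ. By the series text, MIGIRKO and IRIGFRlox mice were heterozygous for Nnt, while homozygous and heterozygous animals were mixed in MIRKO, IRlox, QKO and Qlox. No Nnt genotype is given there for MIGF1RKO and IGFRlox, nor for single libraries.

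Sequencing depth was 1499025 to 7581198 counts, and 13646 genes had enough counts to be tested. The labels do not say that each library is a separate mouse, so p-values measure the spread between libraries. Skeletal muscle fiber markers (Acta1, Ckm, Tnnt3, Actn3, Myh4 and Mylpf) summed to 48042 to 180335 CPM (counts scaled to a common library size) over the libraries, and all 6 were abundant, as in the labelled tissue. Insr fell in each of the 3 genotypes in which it was targeted, with log2 changes of -1.83 in MIRKO, -1.68 in MIGIRKO and -1.99 in QKO. Igf1r fell in QKO (-1.09, edgeR adjusted p = 0.027), a call lost in 7 of 20 alternatives, among them those without QKO 1 (-1.02, adjusted p = 0.055), Qlox 1 (-1.16, adjusted p = 0.26) or Qlox 2 (-1.01, adjusted p = 0.48). Its log2 change was -0.75 in MIGF1RKO (edgeR adjusted p = 0.10; called in 2 of 20 alternatives) and 0.00 in MIGIRKO (adjusted p = 0.99). Foxo1 (-2.98) and Foxo4 (-4.57) fell in QKO, and Foxo3 had a log2 change of 0.29 there (adjusted p = 0.71). Across genes, the library labelled MIRKO 4 was most like MIGIRKO 3 (r = 0.981), and the library labelled MIGIRKO 6 was most like MIRKO 3 (r = 0.973). As 14 of the 34 libraries were most like a library of another group, this measure alone does not set them apart, and whether their labels were exchanged was not tested. Both were kept as labelled, and values without them are given beside the results. As they were picked for likeness to the other group, leaving them out favors a larger difference between MIRKO and MIGIRKO. Without both, Prdx3 (-0.60, edgeR adjusted p = 0.010) and Cat (0.61, adjusted p = 0.018) were still called in MIGIRKO, and Nnt was not called in MIRKO (-1.18, adjusted p = 0.36).

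Of the 10 genes, 9 passed the filter on low counts and all 9 were detected in every library. Txnrd2 (ENSMUSG00000075704, chromosome 16, 18426384 to 18479073, GRCm38) had 0 counts in all 34 libraries, which by counting error alone allows 3 counts per library, or 0.396 to 2.00 CPM. How the authors' counting treated this locus is not given in the sources used here, and the row was taken to give no level of Txnrd2. Per kilobase of exon, which is the scale on which genes can be compared, Gpx3 and Prdx3 stood highest at 97.0 ± 31.2 and 91.6 ± 19.2 CPM per kb (SD, n = 34). Cat at 42.5 ± 11.1 and Gpx1 at 42.2 ± 17.5 CPM per kb followed. Below them lay Sod2 at 31.2 ± 8.13, Gpx4 at 28.1 ± 7.88, Txn2 at 26.3 ± 4.57 and Sod1 at 24.1 ± 6.91 CPM per kb, and Nnt was lowest at 14.0 ± 6.46. Neighbours in this order differed by less than their SD, taking the larger of each pair, except Prdx3 from Cat and Sod1 from Nnt. The order differed between groups: mean Sod2 lay above Cat and Gpx1 in IRIGFRlox and Qlox, and mean Prdx3 above Gpx3 in QKO, IRlox and IRIGFRlox. The exon length pools all annotated transcripts of a gene, which lowers the value of genes with long alternative exons.

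Sod2, the manganese superoxide dismutase of the mitochondrial matrix (ENSMUSG00000006818, chromosome 17, 13006846 to 13040063, GRCm38), was lower in every MIGIRKO library than in any of its controls. It ran from 159.6 to 244 CPM, with a median of 175, in the 6 MIGIRKO libraries, against 356, 384 and 447 CPM in IRIGFRlox. The groups did not overlap. Sod2 fell by 1.05 ± 0.14 on the log2 scale (SE), a 2.08-fold decrease, with an adjusted p of 1.9e-06 by edgeR's quasi-likelihood test over all 13646 genes. Of all genes, 33.7% were called in this comparison, 17% higher and 16.7% lower, and 3 of the 9 tested genes were among them, 1 higher and 2 lower. The groups of 29.9% of all genes did not overlap in this comparison, as those of Sod2 and Prdx3 did not. The median log2 change was -0.29 over the 9 genes and 0.04 over all genes. A gene is called here at a Benjamini-Hochberg adjusted p under 0.05.

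Sod2 was not called in the other genotypes. In MIRKO it had 243, 266, 253 and 174 CPM, against 358, 324 and 337 CPM in IRlox, and all 4 MIRKO libraries lay below the lowest IRlox library. Its log2 change there was -0.54 ± 0.16 (adjusted p = 0.075), and it was called without MIRKO 2 (-0.60, adjusted p = 0.043). The lowest of these values, 174 CPM, belongs to the library labelled MIRKO 4, and the highest of MIGIRKO, 244 CPM, to the library labelled MIGIRKO 6. The change in MIRKO was -0.42 (adjusted p = 0.21) without those libraries, and in MIGIRKO it was -1.14 (adjusted p = 3.3e-08). Marker sums also parted in MIRKO, though no marker was called. Fiber markers summed to 67545 to 119420 CPM in MIRKO, against 136614 to 152566 CPM in IRlox. Immune markers summed to 471 to 1042 CPM in MIRKO, against 264 to 323 CPM in IRlox. Endothelial sums were 251 to 347 CPM in MIRKO against 390 to 411 CPM in IRlox, and red cell sums 23.9 to 51.1 CPM against 56.3 to 60.9 CPM. The sums of adipocyte, Schwann cell and fibroblast markers overlapped. The part of these cells in the MIRKO values of Sod2 and of Nnt, described further on, was not tested. In QKO Sod2 ran from 229 to 360.2 CPM with a median of 332, against 441 and 373 CPM in Qlox. All 7 QKO libraries lay below both Qlox libraries, but the log2 change of -0.35 ± 0.16 was not called (adjusted p = 0.41). In MIGF1RKO, with 334, 358, 316, 364 and 425 CPM against 364, 361, 399 and 369 CPM in IGFRlox, the groups overlapped and the change was -0.05 ± 0.14 (adjusted p = 0.96).

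**Figure D1:**
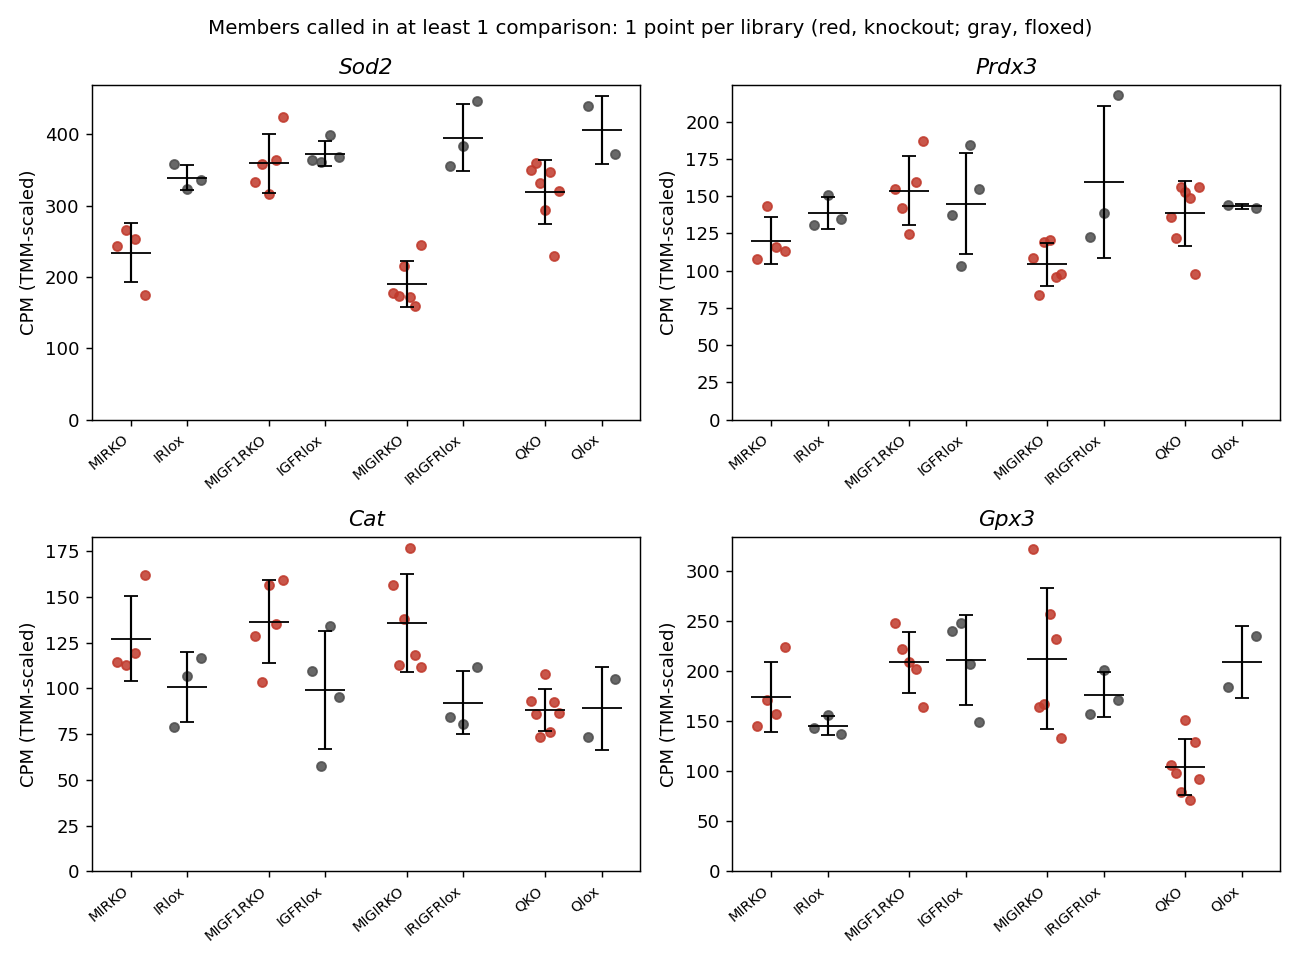
Levels of the 4 genes called in at least 1 comparison, in CPM on axes that start at 0, with 1 point per library (red, knockout; gray, floxed controls), a bar at each group's mean and whiskers of 1 SD. Sod2 in MIGIRKO sits between 159.6 and 244 CPM, below all 3 IRIGFRlox libraries, and Gpx3 in QKO sits between 71.2 and 151 CPM, below both Qlox libraries.

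The differences between these changes were tested directly. The change of Sod2 in MIGIRKO minus that in MIGF1RKO was -0.9996 ± 0.20 (adjusted p = 0.0036), and it was the only 1 of the 9 genes called, on the lower side, where 8.58% of all genes were called, 3.67% higher and 4.91% lower. Prdx3 differed by -0.70 ± 0.24 between the same changes and was not called (adjusted p = 0.061). Between MIGIRKO and MIRKO the Sod2 changes differed by -0.52 ± 0.21 (adjusted p = 0.38), with 0 of the 9 genes called beside 0% of all genes, and 1 of the 9 passed an unadjusted p of 0.05. DESeq2 called 8 genes there and none of the 9. Without the libraries labelled MIRKO 4 and MIGIRKO 6, edgeR called 457 genes, Sod2 among them (-0.72, adjusted p = 0.030). Both libraries were picked for likeness to the other group, and they hold the lowest MIRKO and the highest MIGIRKO value of Sod2. Leaving them out therefore favors a larger difference, and these calls are not separate support for one. Between QKO and MIGIRKO the Sod2 changes differed by 0.70 ± 0.22, with a 95% interval of 0.27 to 1.14, and were not called (adjusted p = 0.052 by edgeR). DESeq2 called that difference (0.69, adjusted p = 0.026), as did 6 of 28 alternatives in all, which included the fit without the libraries labelled MIRKO 4 and MIGIRKO 6 (0.79, adjusted p = 0.0075). That fit, too, leaves out the highest MIGIRKO value of Sod2.

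Prdx3, the peroxiredoxin of the mitochondrial matrix (ENSMUSG00000024997, chromosome 19, 60864051 to 60874556, minus strand), fell beside Sod2 in MIGIRKO. It ran from 83.4 to 120.3 CPM, with a median of 103, in MIGIRKO, against 123, 139 and 218 CPM in IRIGFRlox. The ranges did not overlap, although the highest MIGIRKO library lay close to the lowest of IRIGFRlox. Prdx3 fell by 0.62 ± 0.17 on the log2 scale (adjusted p = 0.0058). Without IRIGFRlox 3, the library at 218 CPM, the change was -0.33 and was not called (adjusted p = 0.18). In MIRKO its log2 change was -0.21 ± 0.19 (adjusted p = 0.60), in MIGF1RKO 0.08 ± 0.17 (adjusted p = 0.94) and in QKO -0.05 ± 0.20 (adjusted p = 0.95).

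Txn2, the thioredoxin that recharges Prdx3 (ENSMUSG00000005354, chromosome 15, 77915047 to 77929006, minus strand), stayed just outside the threshold in MIGIRKO. It ran from 89.6 to 125 CPM with a median of 103, against 129, 151 and 123 CPM in IRIGFRlox, and 5 of 6 MIGIRKO libraries lay below all 3 controls. Its log2 change was -0.38 ± 0.15 (adjusted p = 0.055). Over the other genotypes its change was -0.18 ± 0.17 in MIRKO (adjusted p = 0.61), -0.32 ± 0.15 in MIGF1RKO (adjusted p = 0.43) and 0.16 ± 0.18 in QKO (adjusted p = 0.76).

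Catalase, which breaks down peroxide mostly in peroxisomes (Cat, ENSMUSG00000027187, chromosome 2, 103453849 to 103485160, minus strand), moved the other way. In MIGIRKO it ran from 111 to 177 CPM with a median of 128, against 84.4, 80.5 and 112 CPM in IRIGFRlox, and 5 of 6 MIGIRKO libraries lay above all 3 controls. Cat rose by 0.56 ± 0.20 on the log2 scale, 1.47-fold (adjusted p = 0.032). The call was lost without IRIGFRlox 1 (0.50, adjusted p = 0.12), IRIGFRlox 2 (0.47, adjusted p = 0.14), MIGIRKO 1 (0.51, adjusted p = 0.054) or MIGIRKO 4 (0.47, adjusted p = 0.075). Cat had a log2 change of 0.34 ± 0.21 in MIRKO (adjusted p = 0.42) and of 0.46 ± 0.19 in MIGF1RKO (adjusted p = 0.35). Its change in QKO was -0.02 ± 0.23 (adjusted p = 0.99), and the difference from MIGIRKO, -0.57 ± 0.30, was not called (adjusted p = 0.27).

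Tissue markers moved with these changes in MIGIRKO. Of the 6 fiber markers 4 fell, and their sum was 48042 to 84590 CPM in MIGIRKO, against 146454 to 164691 CPM in IRIGFRlox. All 6 adipocyte markers rose, with sums of 266 to 635 CPM in MIGIRKO against 124 to 141 CPM in IRIGFRlox, and so did all 6 immune markers, with 509 to 1443 CPM against 149.5 to 222 CPM in IRIGFRlox. Of 6 markers each, 5 rose for Schwann cells and 4 for fibroblasts, while none of 6 endothelial and none of 5 tested red cell markers was called. Every marker of these lists had counts, and 1 of 6 red cell genes was too low to test. In bulk muscle, fewer cells of a type and less RNA per cell cannot be told apart, and the part these cells had in the levels of Sod2, Prdx3 and Cat was not tested. Scaling by library totals alone, without trimmed mean of M values (TMM) factors, moved the median of all genes in MIGIRKO to 0.53. On that scale Sod2 still fell (-0.56, adjusted p = 0.00048), Prdx3 was not called (-0.12, adjusted p = 0.56), Cat rose by 1.05 and Gpx3 was called higher (0.76, adjusted p = 0.014).

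Gpx3, the secreted glutathione peroxidase that is abundant in plasma (ENSMUSG00000018339, chromosome 11, 54902453 to 54910377), was the only 1 of the 9 genes called in QKO, where 0.506% of all genes were called, 0.0513% higher and 0.454% lower. It ran from 71.2 to 151 CPM with a median of 98.8 in QKO, against 184 and 235 CPM in Qlox. All 7 QKO libraries lay below both Qlox libraries, as they did for Sod2, while the groups of 9.77% of all genes did not overlap here. Gpx3 fell by 1.00 ± 0.24 on the log2 scale, 2.01-fold (adjusted p = 0.043). The call rests on 2 Qlox libraries: the change was -1.17 without Qlox 1 (adjusted p = 0.22) and -0.82 without Qlox 2 (adjusted p = 0.65), and it was called in 8 of 20 alternatives, while all 20 kept its sign. It was also lost without QKO 1, QKO 2, QKO 3, QKO 5 or QKO 7 (adjusted p between 0.057 and 0.087). Markers of other cells were not called in QKO, but the immune sum was 221 to 2718 CPM (mean 703) in QKO against 161 to 212 CPM in Qlox. The median log2 change was 2.24 for immune, 0.25 for fibroblast and 0.24 for red cell markers. It was -1.03 for Schwann cell, -0.58 for adipocyte and -0.09 for endothelial markers. The part of these cells in the level of Gpx3 was not tested.

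Gpx3 was not called in the other genotypes. In MIGIRKO it ran from 133 to 322 CPM with a median of 199.8, against 157, 201.5 and 171 CPM in IRIGFRlox, and the groups overlapped. Its log2 change was 0.27 ± 0.22 in MIGIRKO (adjusted p = 0.37), 0.26 ± 0.24 in MIRKO (adjusted p = 0.61) and -0.01 ± 0.21 in MIGF1RKO (adjusted p = 0.996). The change in QKO differed from that in MIGIRKO by -1.27 ± 0.33 (adjusted p = 0.022), in a comparison that called 1 of the 9, lower, and 5.76% of all genes, 3.61% higher and 2.15% lower. That difference was called in 21 of 28 alternatives, and the calls lost included those with the runs of library numbers (described with Nnt) as a blocking term (adjusted p = 0.062), with the compared groups only (0.065), without the 6 libraries of run 4 (0.12), without Qlox 1 (0.062), Qlox 2 (0.18), IRIGFRlox 1 (0.061) or IRIGFRlox 3 (0.0502).

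Promoter windows of the called genes are printed to show what surrounds their start sites. Whether any motif in them bears on the changes of these genes was not tested. Each runs from 250 bases before to 50 bases after the start site in RefSeq's annotation of GRCm38.p6, 5′ to 3′ on the gene's strand, with GC boxes (GGGCGG, or CCGCCC on the other strand) in capitals. Sod2 lies at chr17:13007589-13007888 (plus strand), Prdx3 at chr19:60874489-60874788 (minus), Cat at chr2:103485104-103485403 (minus) and Gpx3 at chr11:54902604-54902903 (plus).
Sod2: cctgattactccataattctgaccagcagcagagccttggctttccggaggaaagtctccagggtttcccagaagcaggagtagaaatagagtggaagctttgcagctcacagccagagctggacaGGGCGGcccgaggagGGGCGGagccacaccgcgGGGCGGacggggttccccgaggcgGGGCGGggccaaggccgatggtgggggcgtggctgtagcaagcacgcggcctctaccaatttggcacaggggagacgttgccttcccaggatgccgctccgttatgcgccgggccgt
Prdx3: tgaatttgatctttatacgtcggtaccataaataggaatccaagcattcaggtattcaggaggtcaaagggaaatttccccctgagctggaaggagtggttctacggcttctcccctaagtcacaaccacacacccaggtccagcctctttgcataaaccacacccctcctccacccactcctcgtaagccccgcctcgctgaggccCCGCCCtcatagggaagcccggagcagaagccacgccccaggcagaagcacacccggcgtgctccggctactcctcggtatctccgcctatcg
Cat: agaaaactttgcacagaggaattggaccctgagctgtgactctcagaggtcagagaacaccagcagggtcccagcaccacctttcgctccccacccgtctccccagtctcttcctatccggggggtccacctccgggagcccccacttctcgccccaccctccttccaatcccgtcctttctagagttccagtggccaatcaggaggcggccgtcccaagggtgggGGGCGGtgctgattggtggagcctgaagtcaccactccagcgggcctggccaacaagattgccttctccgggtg
Gpx3: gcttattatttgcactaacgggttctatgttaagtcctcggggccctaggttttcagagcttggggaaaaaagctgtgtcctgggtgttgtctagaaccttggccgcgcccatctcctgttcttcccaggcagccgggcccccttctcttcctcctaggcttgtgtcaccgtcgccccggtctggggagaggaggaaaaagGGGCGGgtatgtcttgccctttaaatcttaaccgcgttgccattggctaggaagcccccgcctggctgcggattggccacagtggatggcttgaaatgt
The forkhead core TGTTTAC (or GTAAACA on the other strand) was in 0 of the 12 windows that RefSeq gives for 9 of the 10 genes, and in 3.65% of 32851 windows of all genes. A GC box was in 11 of the 12 windows and at least once in each of the 9 genes, against 35.7% of all windows. The 12 windows are not separate, since some of Gpx4's 4 windows overlap and share their GC boxes. The share over all windows is not limited to genes expressed in muscle or to windows of like base content. Whether these genes differ from such windows was not tested. Sod2's window held 4 of them, where 10.7% of all windows held 3 or more, and those of Prdx3, Cat and Gpx3 held 1 each. The GC box was chosen as a motif after the data had been seen. No match says only that these letters are not in these windows, and Nnt has no window in the table.

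In MIRKO and MIGF1RKO no member of the set was called, where 1.25% (0.865% lower) and 0.616% of all genes were. The unadjusted p was under 0.05 for 2 of the 9 genes in MIRKO (Nnt and Sod2) and for 3 in MIGF1RKO (Cat, Gpx4 and Txn2). DESeq2 called 1 in MIRKO, Sod2 (adjusted p = 0.035), and 0 in MIGF1RKO, and limma called 0 in both. The median log2 change of the 9 genes was -0.21 in MIRKO, where that of all genes was 0.03, and -0.05 in MIGF1RKO, where that of all genes was 0.00. The knockout and floxed libraries of 16.1% of all genes did not overlap in MIRKO, as those of Nnt and Sod2 did not, and of 5.14% in MIGF1RKO, where none of the 9 did so. The 4 floxed groups were also set against each other, and 0 of the 9 genes differed among them by edgeR (0.264% of all genes called; 0 of the 9 with an unadjusted p under 0.05, and 0 by DESeq2 or limma).

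**Figure D2:**
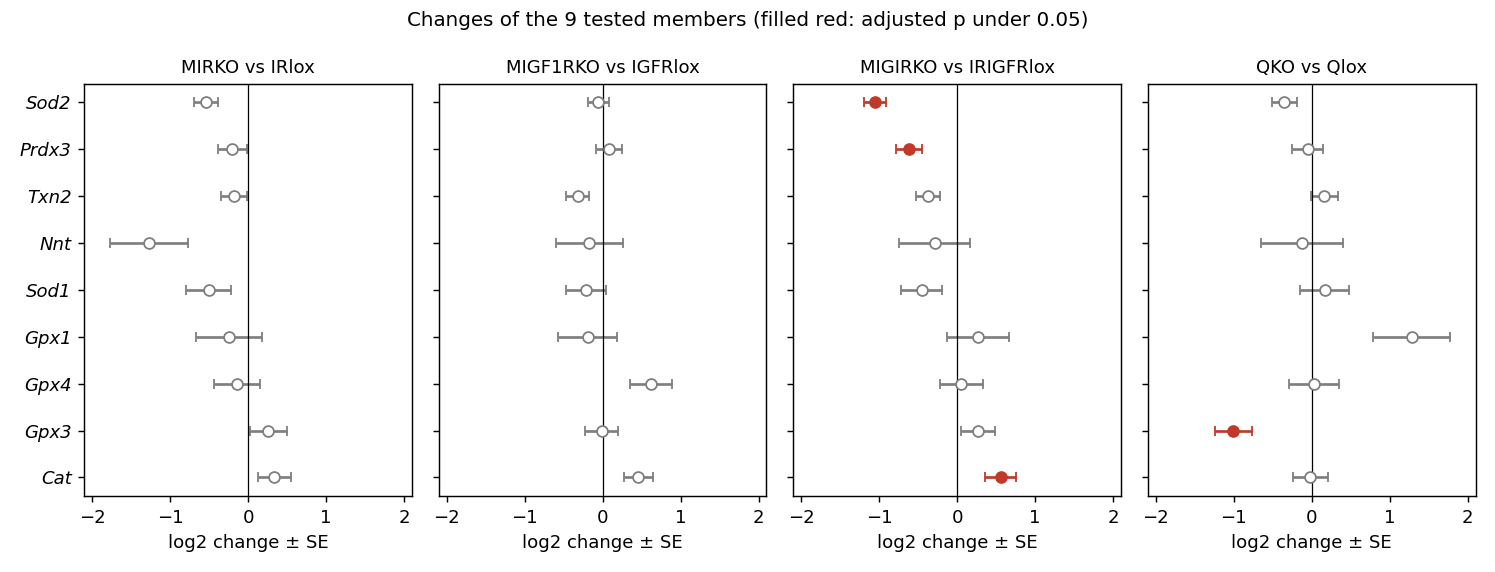
Log2 change of the 9 tested genes in each knockout against its own floxed controls, with whiskers of 1 SE; filled red points have an adjusted p under 0.05. Sod2 runs from -1.05 in MIGIRKO to -0.05 in MIGF1RKO, and Nnt and Gpx1 have the widest errors, 0.38 to 0.52.

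Sod1, Gpx1 and Gpx4 were called in none of the comparisons. Sod1, the copper and zinc dismutase (ENSMUSG00000022982, chromosome 16, 90220754 to 90226329), ran from 53.9 to 157 CPM over all libraries. Its log2 change was -0.51 ± 0.29 in MIRKO, -0.21 ± 0.26 in MIGF1RKO, -0.46 ± 0.26 in MIGIRKO and 0.17 ± 0.31 in QKO, and its groups overlapped in each. Gpx4, which reduces lipid peroxides in membranes (ENSMUSG00000075706, chromosome 10, 80047166 to 80056439), ran from 17.6 to 73.6 CPM. Its largest change was 0.62 ± 0.27 in MIGF1RKO (adjusted p = 0.40), where 3 of 5 MIGF1RKO libraries lay above all 4 of IGFRlox. Gpx1, the main cytosolic and mitochondrial glutathione peroxidase (ENSMUSG00000063856, chromosome 9, 108338903 to 108340343), ran from 21.1 to 113 CPM. In QKO it ran from 32.0 to 101.1 CPM with a median of 92.8, against 29.2 and 34.2 CPM in Qlox. Although 6 of 7 QKO libraries lay above both Qlox libraries, the change of 1.28 ± 0.50 was not called (adjusted p = 0.32), and its 95% interval ran from 0.31 to 2.25.

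Nnt (ENSMUSG00000025453, chromosome 13, 119335448 to 119408997, minus strand) varied most of the 9 genes between libraries of the same group. The transhydrogenase is known for the C57BL/6J allele, a deletion of several exons that leaves no working enzyme. GRCm38 is the C57BL/6J genome, so exons missing from that strain are missing from the reference too, and what this does to its counts was not tested. The annotation used here also holds a second model of Nnt (ENSMUSG00000116207) that covers 47.4% of the exon bases and is not a row of the table.

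In MIRKO Nnt had 89.1, 23.6, 33.6 and 35.7 CPM, against 99.6, 132 and 97.6 CPM in IRlox. All 4 MIRKO libraries lay below all 3 of IRlox. The log2 change was -1.28 ± 0.50, with a 95% interval of -2.26 to -0.30, and was not called (adjusted p = 0.19). With all 12 floxed libraries as control it was called (-1.37, adjusted p = 0.016), and in the other 17 alternatives it was not. Those 12 libraries come from colonies whose Nnt genotypes differ or are not given. MIRKO and IRlox each mixed homozygous and heterozygous animals. An effect of receptor loss on Nnt therefore cannot be told apart from unequal shares of Nnt genotypes. In MIGF1RKO Nnt had 169, 128, 141, 116 and 111 CPM, against 176, 121, 147 and 156 CPM in IGFRlox, a change of -0.17 ± 0.43. These groups overlapped, and their means were the highest of the 8.

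In MIGIRKO, all heterozygous by the series text, Nnt ran from 32.5 to 143 CPM with a median of 75.4, against 32.2, 113 and 146 CPM in IRIGFRlox, also heterozygous. The spread was wide in both, 4.402-fold between the highest and lowest MIGIRKO library and 4.54-fold in IRIGFRlox, and the change was -0.29 ± 0.45 (adjusted p = 0.66). In QKO Nnt ran from 26.9 to 150.2 CPM with a median of 84.8, against 49.9 and 141 CPM in Qlox, a change of -0.12 ± 0.52 (adjusted p = 0.96). The groups overlapped. By their means the groups ran from MIRKO at the bottom through MIGIRKO, QKO, Qlox, IRIGFRlox, IRlox and MIGF1RKO to IGFRlox at the top, and each neighbouring pair in this order overlapped. A difference among the 4 floxed groups was not called (adjusted p = 0.84 by edgeR).

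**Figure D3:**
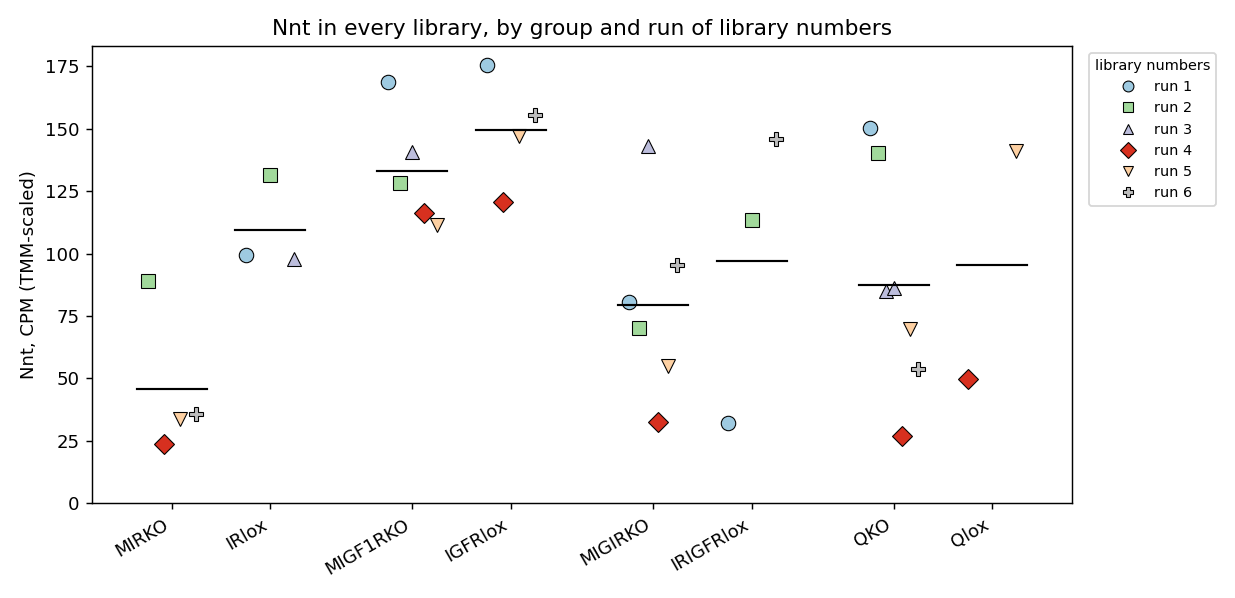
Nnt in CPM in each of the 34 libraries, by group; bars are group means, and symbols give the run of consecutive library numbers in the labels. The library of run 4 (red diamonds) is the lowest of its group in 5 of 6 cases, and levels range from 23.6 to 176 CPM.

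Around the group means, the SD of Nnt was 0.71 on the log2 scale (26 residual degrees of freedom), against a median of 0.34 over all genes. That put Nnt at rank 1113 of 13646 genes. Among the 2565 genes within 1 log2 unit of its level, whose median SD was 0.23, it ranked 34. Gpx1 followed with an SD of 0.60, then Gpx4 (0.44), Sod1 (0.40), Gpx3 (0.33), Cat (0.29), Prdx3 (0.25), Txn2 (0.22) and Sod2 (0.20). Sod2 was thus the steadiest of the 9 within groups. The SD of Nnt was 0.69 with library totals only, 0.73 without the libraries labelled MIRKO 4 and MIGIRKO 6, and 0.59 without the 6 libraries of run 4 described next. Without run 4 Nnt ranked 2060 among all genes, and 70 among 2336 genes of like level. With run means removed as well as group means, its SD was 0.57, at rank 2090 among all genes and 47 among 2565 of like level.

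The titles number the libraries, and these numbers fall into 6 runs of consecutive identifiers, whose meaning is not given in the sources used here. In run 4, which holds 6 libraries of 6 groups, all 6 lay below their group's mean of Nnt, on average by -0.77 on the log2 scale, and 5 were the lowest of their group. In the other runs the mean deviation was between -0.05 and 0.45. Gpx1 (-0.59, with 5 of 6 lowest) and Gpx4 (-0.55, with 4 of 6 lowest) were low in the same run. Smaller mean deviations there were -0.20 for Sod1, -0.18 for Txn2 (6 of 6 below their group's mean) and -0.15 for Cat. For Gpx3 it was -0.02, for Sod2 0.05 and for Prdx3 0.04. Run 4 holds the shallowest library (1499025 counts), and its others reach 5894586. Nnt and log2 depth had r = 0.18 over the 34 libraries, given as a description. With no Nnt genotype given for single libraries, its part in this spread was not tested.

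Whether other redox genes varied with Nnt between libraries of a group was asked in 9 relations, 8 with the other tested genes and 1 with the mean of 12 complex I subunits, in 34 libraries with group means removed. P-values are two-sided, from permutations within groups with 100000 resamples, and adjusted over the 9. Gpx1 varied with Nnt, with r = 0.55 (p = 0.0014, adjusted p = 0.013) and rho = 0.56 (p = 0.0015, adjusted p = 0.0069), and r = 0.51 without the 2 libraries farthest from the median of Nnt (QKO 5 and IRIGFRlox 1). The complex I mean had r = 0.50 (p = 0.0045, adjusted p = 0.020), rho = 0.69 (adjusted p = 0.00045) and r = 0.57 without those 2. With run means removed as well, r was 0.20 for Gpx1 (adjusted p = 0.64 by permutation) and 0.21 for complex I (adjusted p = 0.64), and neither relation was called. All permutations with run removed were again made within groups and across runs, so they are not a test within runs. Gpx4 had r = 0.31 (adjusted p = 0.14 by permutation) and, with run removed, r = -0.49 (adjusted p = 0.018). For Sod1, r was 0.31 (adjusted p = 0.14) while rho was 0.45 (adjusted p = 0.041), again by permutation, and r was -0.05 with run removed. The relations with Sod2, Cat, Gpx3, Prdx3 and Txn2 had r between 0.04 and 0.40 and were not called.

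**Figure D4:**
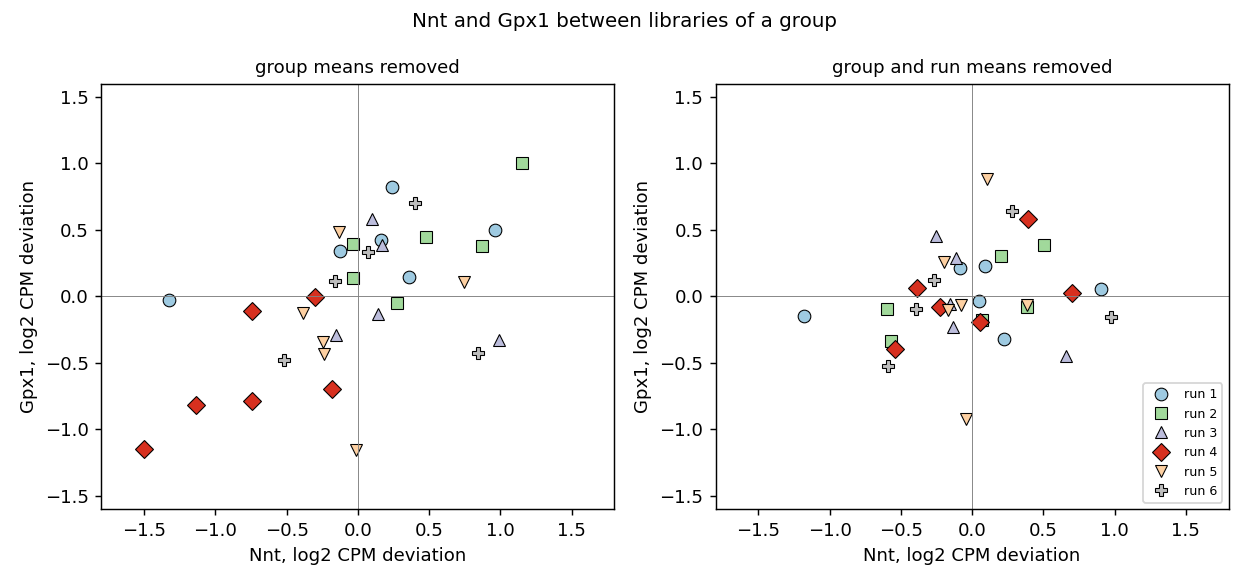
Deviation of Gpx1 against that of Nnt in log2 CPM, 1 point per library, with group means removed (left) and with group and run means removed (right); symbols mark the 6 runs of library numbers. Pearson's r is 0.55 on the left, where the 6 libraries of run 4 lie toward the lower left, and 0.20 on the right.

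The genes most like Nnt across the 34 libraries, again with group means removed and as a description, were Gm10643 (r = 0.74), Prr13 (0.69), 1810022K09Rik (0.68), Stoml2 (0.68) and Ddx47 (0.67). None of the 5 lies on chromosome 13. With run removed, r was 0.63 for Gm10643, 0.54 for Prr13, 0.61 for 1810022K09Rik, 0.36 for Stoml2 and 0.42 for Ddx47. Of the 3 nearest tested genes on each side of Nnt, Paip1, 19.6 kb away, had r = 0.10, and the others had r of -0.05 (Emb), 0.44 (Mrps30), -0.31 (Fgf10), -0.06 (4833420G17Rik) and 0.38 (Tmem267). Libraries differed in depth and run, and run was removed only in the values said to be so.

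Beyond the 10 genes, 49 further redox genes were taken by role, of which 48 were tested (Gstp1 was not). In MIGIRKO 19 of the 48 were called, 11 higher and 8 lower, or 39.6% where 33.7% of all genes were called, and the median log2 change was 0.01 where that of all genes was 0.04. With library totals only, 23 were higher and 2 lower. None was called in MIRKO, MIGF1RKO or QKO by edgeR, and DESeq2 called 1 in MIRKO.

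By role, 7 of 8 genes of NADPH supply were called in MIGIRKO, 4 higher and 3 lower, with a median change of 0.00. Each count by role stands beside the 33.7% of all genes called in this comparison, and nothing particular to a role is read from it. G6pdx, the first enzyme of the pentose phosphate pathway, rose by 1.56 ± 0.28 on the log2 scale, to 12.7 ± 1.799 CPM in MIGIRKO against 4.27 ± 0.79 CPM in IRIGFRlox (SD; adjusted p = 1.0e-04 by edgeR). Pgd, a later enzyme of the same pathway, rose by 1.21 ± 0.20, to 66.7 ± 14.3 CPM against 28.8 ± 4.11 CPM in IRIGFRlox. Me1, the cytosolic malic enzyme, fell by 1.25 ± 0.32, to 108 ± 47.9 CPM against 257 ± 26.4 CPM in IRIGFRlox. Nadk2, the mitochondrial NAD kinase, fell by 0.53 ± 0.15, but was not called with library totals only (-0.04, adjusted p = 0.82) or without IRIGFRlox 3 (-0.40, adjusted p = 0.090).

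Among 9 other enzymes against superoxide and peroxide, Sod3, the extracellular dismutase, rose by 1.38 ± 0.24, to 31.9 ± 5.56 CPM in MIGIRKO against 12.3 ± 2.67 CPM in IRIGFRlox. Gpx8, of the endoplasmic reticulum, rose by 1.32 ± 0.28, to 15.7 ± 3.65 CPM against 6.36 ± 2.46 CPM in IRIGFRlox. With Prdx4 (1.30) 3 of the 9 rose, and Prdx5 (-0.70) fell; genes named here with a change alone were picked after their values were seen. Of 7 genes for selenoproteins and methionine repair, the methionine sulfoxide reductases Msrb2 and Msra fell by 1.38 ± 0.21 and 0.78 ± 0.16, while Selenop (1.16) and Selenon (0.84) rose. With library totals only Msra was not called (-0.28, adjusted p = 0.16 by edgeR). Msrb2 had 5.61 ± 0.91 CPM in MIGIRKO, against 14.7 ± 0.31 CPM in IRIGFRlox. None of the 10 thioredoxin and glutaredoxin genes and 1 of 9 glutathione genes (Mgst3, -0.88) was called. Of 5 genes of the NRF2 pathway, Nfe2l2 (0.69) and Hmox1 (1.23) rose and Keap1 (-0.52), whose protein marks NRF2 for degradation, fell. The falls of Keap1, Prdx5 and Mgst3 were not called with library totals only, where 0 genes of their roles were called lower. The marker sums of fat and immune cells given above were higher in all 6 MIGIRKO libraries than in IRIGFRlox, and their part in these changes was not tested.

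**Figure D5:**
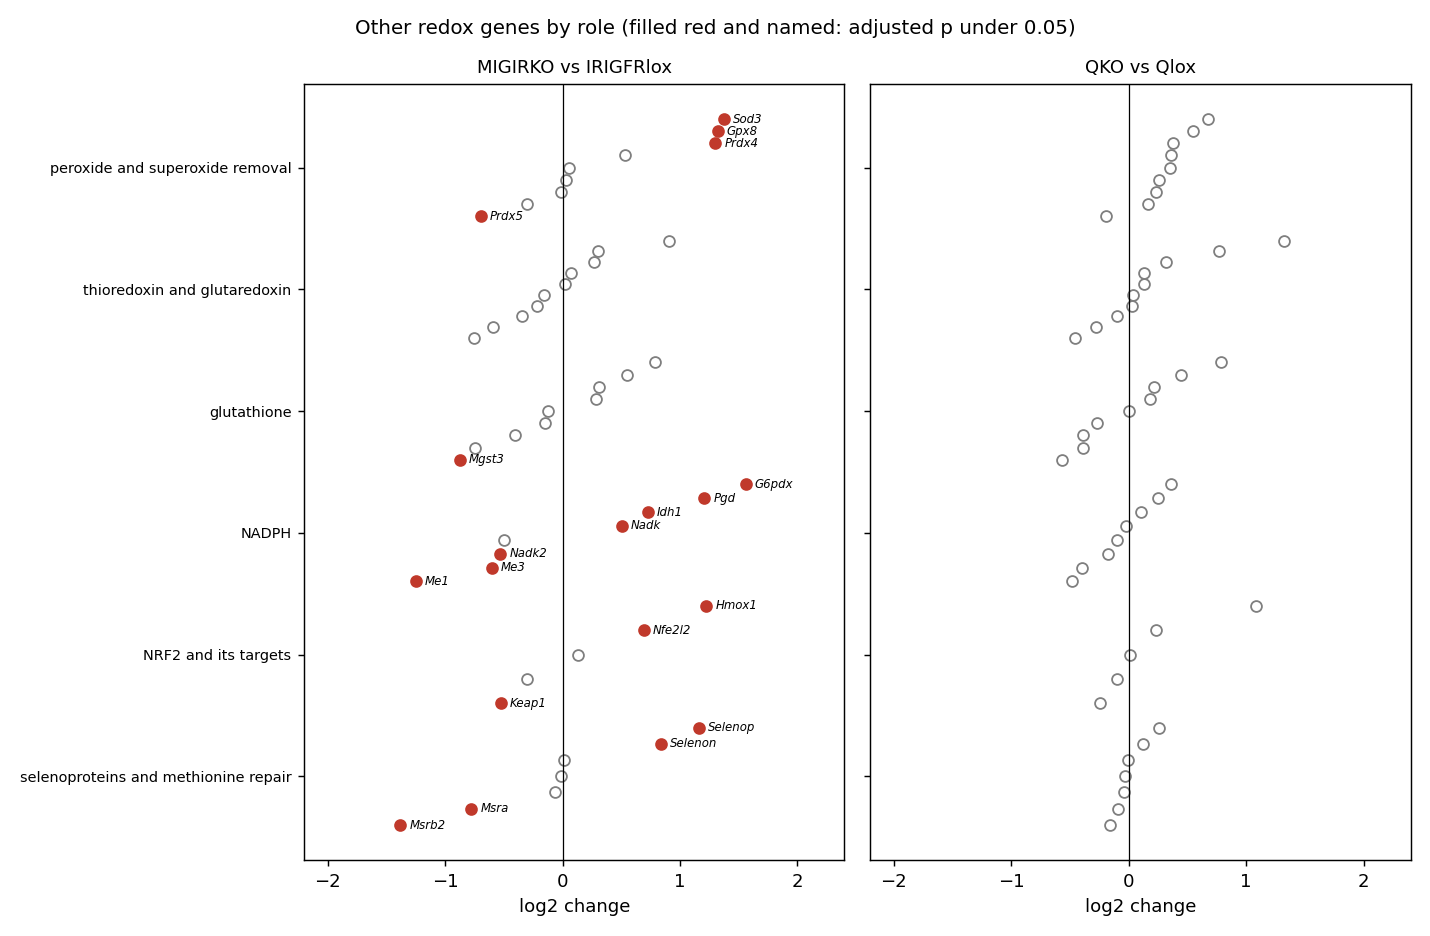
Log2 change of the 48 tested redox genes by role in MIGIRKO against IRIGFRlox (left) and QKO against Qlox (right), 1 point per gene, filled red and named where the adjusted p was under 0.05. In MIGIRKO 11 genes are called to the right of 0 and 8 to the left, and in QKO none is called.

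Between the QKO and MIGIRKO changes, 2 of the 48 differed (4.17%, beside 5.76% of all genes). Msrb2 differed by 1.29 ± 0.34 (adjusted p = 0.025 by edgeR), with 10.5 ± 1.81 CPM in QKO against 11.2 ± 1.29 CPM in Qlox. Its call was lost in 5 of 28 alternatives: library totals only (0.84, adjusted p = 0.096), runs as a block (adjusted p = 0.096), without run 4 (0.082), without Qlox 1 (0.098) and without Qlox 2 (0.19). Idh1, the cytosolic NADP-linked isocitrate dehydrogenase, differed by -0.82 ± 0.23 (adjusted p = 0.034). That call was lost in 13 of 28 alternatives, with no filter (adjusted p = 0.093), runs as a block (0.092), the compared groups only (0.061), without run 4 (0.11) and in 9 of the 18 that leave out 1 library. Those 9 libraries were QKO 1, 2 and 3, Qlox 1 and 2, MIGIRKO 4 and IRIGFRlox 1, 2 and 3, with an adjusted p of up to 0.23 (without Qlox 2). Between the MIGIRKO and MIGF1RKO changes 7 of the 48 differed (14.6%, beside 8.58% of all genes), among them G6pdx by 1.87 ± 0.40, Gpx8 by 1.501 ± 0.37, Pgd by 1.21 ± 0.27 and Nadk by 0.81 ± 0.21, while Msrb2 differed by -1.55 ± 0.31 and Msra by -0.81 ± 0.23. G6pdx, Pgd and Msrb2 were called in 28 of 28 alternatives. Msra was lost in 7, with library totals only (-0.39, adjusted p = 0.24), no filter (0.074), without run 4 (0.058) and without IRIGFRlox 2 (0.092), IRIGFRlox 3 (0.057), IGFRlox 2 (0.059) or MIGF1RKO 5 (0.059). Gpx8 was lost without run 4 (adjusted p = 0.062) and without IRIGFRlox 1 (0.056), and Nadk without run 4 (0.052) and without IRIGFRlox 3 (0.054). None of the 48 differed between the MIGIRKO and MIRKO changes, as none of all genes did by this test.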

How the data were processed

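RNA from mixed quadriceps and gastrocnemius was sequenced with a directional kit, per the labels' protocols. The authors deposited raw read counts per gene for 34 libraries, made with STAR and featureCounts on GRCm38.p4, per the submitters' processing notes; versions and the strand setting are not given in the sources used here. Of 46071 gene IDs, 45143 matched GENCODE M21, which gave names, coordinates and exon lengths. Total counts per library (1499025 to 7581198) limit the precision, and limits for a count of 0 cover counting error only.

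Low genes were removed with filterByExpr over the 8 groups, which left 13646. Library sizes were corrected with TMM (trimmed mean of M values) factors, and genes were tested by edgeR 4.0.16 (R 4.3.3, robust quasi-likelihood F test). The dispersion of each gene was estimated over all 34 libraries together. P-values had Benjamini-Hochberg adjustment over all genes tested, with calls at an adjusted p under 0.05. Each knockout was set against its own floxed controls, differences between changes were tested as contrasts, and the 4 floxed groups by a joint test. Log CPM used a prior count of 2. The SE is the log2 change divided by the square root of F, and intervals are 95%.

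Relations with Nnt used log2 CPM less the group means, with permutations inside groups (Python 3.11.15, numpy 2.4.6, scipy 1.17.1). Alternatives used DESeq2 1.42.0 and limma 3.58.1 (voom), other scalings and filters, library runs as a block, fewer or other libraries, and leaving out each library. Tested on simulated data, the edgeR fit recovered 41.8% of 67 genes changed 2-fold in MIRKO, 64.2% in MIGF1RKO, 68.7% in MIGIRKO and 43.3% in QKO, among 13598 to 13611 genes. Of 67 genes changed 1.5-fold it recovered 10.4% in MIRKO and in MIGF1RKO, and 11.9% in MIGIRKO and in QKO. In the simulation few genes were changed and all others had 1 mean over the 8 groups. It thus differs from the real MIGIRKO comparison, where 33.7% of genes were called.

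Named by rule were the 10 genes, up to 4 redox genes called in each direction with the smallest adjusted p, the 5 genes most like Nnt, its 3 nearest tested genes on each side, and the targeted genes. Outside this rule, Prdx4, Prdx5, Selenop, Selenon, Mgst3, Nfe2l2, Hmox1 and Keap1 were picked after their values were seen. The 10 genes, the redox list and the marker lists were chosen with earlier results of these data known.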

Additional observations from a re-analysis of the deposited data

Results flagged for a closer look

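Cat in the library labelled MIRKO 4 stood apart from its group, at 162 CPM where the next MIRKO library had 119 CPM. Of 45 groups of 4 to 10 libraries checked over the 9 tested genes this was the only 1 with such a gap, and chance gives about 1 in 20.

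Some changes differed between genotypes by a test of the difference itself, with edgeR's adjusted p under 0.05. For the QKO change minus the MIGIRKO change these were Gpx3 (-1.27), Msrb2 (1.29) and Idh1 (-0.82), whose calls were lost in 7, 5 and 13 of 28 alternatives, for all 3 genes when either Qlox library was left out. For the MIGIRKO change minus the MIGF1RKO change they were Sod2 (-0.9996), G6pdx (1.87), Pgd (1.21), Gpx8 (1.501), Nadk (0.81), Msrb2 (-1.55) and Msra (-0.81), of which Msra was lost in 7 of 28 alternatives and Gpx8 and Nadk in 2 each.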

How the results depend on the processing

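Of 1638 changes of single members under the alternatives, 1594 kept their side of the threshold, 25 lost a call, 19 gained one and 0 called changes turned their direction, although 96 uncalled changes took the other sign. Sod2 fell in MIGIRKO in 20 of 20 alternatives (-1.14 to -0.56). Members called in MIRKO were 1 with DESeq2 and 2 with all 12 floxed libraries as control, and of the redox list 1 with DESeq2, 1 with library totals only and 13 with all floxed libraries, which also called 3 of that list in QKO. In QKO 0 members were called with library totals only, no filter, library runs as a block, the compared groups only, or without the 6 libraries of run 4. For QKO minus MIGIRKO, DESeq2 called 2 and the fit without MIRKO 4 and MIGIRKO 6 called 2, while the block, the compared groups only and the fit without run 4 each called 0. For MIGIRKO minus MIGF1RKO, DESeq2 and the block each called 2, and for MIGIRKO minus MIRKO 1 was called without MIRKO 4 and MIGIRKO 6. These libraries were picked for likeness to the other group, so leaving them out favors such a difference. Leaving out 1 library at a time gave 0 to 1 members in MIRKO, 0 to 1 in QKO, 2 to 4 in MIGIRKO, 0 to 2 for QKO minus MIGIRKO, 1 to 2 for MIGIRKO minus MIGF1RKO, and 0 to 1 of the redox list in MIRKO. With library run removed, an alternative chosen after seeing the data like the fit without run 4, r with Nnt was 0.20 for Gpx1, 0.21 for the complex I mean and -0.49 for Gpx4, which turned its sign. Counts over all genes moved too: 170 in MIRKO became 371 with DESeq2, 279 with library totals (229 higher, against 52 higher of 170), 102 without a filter, 74 with the block, 9 with the compared groups only, 33 without MIRKO 4 and MIGIRKO 6, 270 without run 4 and 2778 with all floxed libraries. In MIGF1RKO 84 became 144, 176, 164, 29 and 239 with DESeq2, the compared groups, without those 2 libraries, without run 4 and with all floxed libraries; in QKO 69 became 140, 41, 135, 21 and 1052 in that order. MIGIRKO went to 7002 with library totals (6314 higher) against 4603 (2321 higher). QKO minus MIGIRKO had 786 (293 lower), against 1404 with totals (1238 lower), 498 without a filter, 502 with the compared groups, 1342 without those 2 libraries and 87 without run 4. MIGIRKO minus MIGF1RKO had 1171 (501 higher), against 2167 with totals (1962 higher), 668 without a filter and 566 without run 4. MIGIRKO minus MIRKO had 0, against 8 with DESeq2 and 457 without those 2 libraries, and the floxed groups had 36, against 163 with DESeq2, 18 with limma, 119 with the compared groups, 78 without those 2 libraries and 6 without run 4. Leaving out 1 library at a time gave 13 to 368 genes in MIRKO, 30 to 81 in MIGF1RKO, 21 to 85 in QKO, 15 to 42 among floxed groups, 113 to 1384 for QKO minus MIGIRKO, 585 to 1463 for MIGIRKO minus MIGF1RKO and 0 to 145 for MIGIRKO minus MIRKO. The cause of these shifts was not tested. No paired analysis was possible because no replicate number is shared across groups in the labels; the runs of library numbers, which match libraries only in part, entered as the block given here. Shallow libraries and 2 Qlox libraries limit what QKO can show.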
